A study of Canis lupus familiaris with 12 samples.

Results

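The genes described here encode the proteins of homologous recombination and of the Fanconi pathway, together with the checkpoint kinases that signal to them. The list holds 38 genes. It covers the BRCA proteins and mediators, the strand-exchange factors, the end resection enzymes, and the helicases and dissolution factors. It also covers the Fanconi core and ID2 complexes, ATM, ATR, CHEK1 and CHEK2, and 3 other repair factors. A gene was included where the platform annotation gave its symbol to a probe set, and each gene was represented by its brightest probe set, the one with the highest mean over all arrays. This gave 31 of the 38 genes, out of 15115 genes measured. BLM, FANCB, FANCF, PALB2, POLQ, RMI1 and XRCC3 had no probe set under their symbol. These genes are not analysed here.

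Homologous recombination repairs a broken chromosome by copying the intact sister chromatid. The broken ends are first cut back to single strands by the MRN complex and its partner nucleases, and the single strand, with BRCA2 and the strand-exchange factors, then finds and invades the matching sequence. The Fanconi pathway removes crosslinks between the strands of the double helix: a core complex attaches ubiquitin to the paired FANCD2 and FANCI proteins, which direct nucleases to the lesion and hand the resulting break to recombination. Both systems work mainly while DNA is being copied and shortly after, and many of their genes are known to be transcribed more in S and G2 phase of dividing cells.

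C2 is an established line from a canine mast cell tumour, and its KIT receptor is mutated and signals without ligand. Masitinib is a small molecule that inhibits KIT and related tyrosine kinases. Cells were harvested before treatment (0 h) and after 12, 24 and 72 h in 100 nM masitinib, with 3 arrays at each of the 4 time points. All cultures came from 1 cell line, so the 3 arrays of a time point measure the spread between flasks of that line and not between animals. Untreated cultures at the later time points were not analysed here, and the effect of masitinib and that of time in culture cannot be told apart. In a bulk culture, fewer cells carrying a transcript and less of it per cell cannot be told apart either.

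Values are log2 expression values, so that a difference of 1 is a 2-fold change. The deposited values had been quantile-normalised, and array medians lay between 5.889 and 5.947. Arrays of 1 time point had a Pearson's r of 0.9952 to 0.9979, calculated across probe sets and not across independent samples. Of 10 mast cell markers 9 were measured, all between the percentiles 79.3 and 100 of mean signal, and their mean level was 12.33, 12.81, 13.15 and 13.13 at 0, 12, 24 and 72 h. Markers of macrophages, B cells and fibroblasts were below the median probe set in 4 of 5, 4 of 4 and 4 of 5 genes, and no marker of these lists or of T cells reached the level of any mast cell marker by percentile. The T cell and epithelial lists had 2 of 5 and 2 of 4 genes below the median, and at 72 h 2 genes of each were called lower. At 72 h 1 epithelial and 1 B cell marker were called higher, and at 12 h 2 epithelial markers and 1 T cell marker. Of the mast cell markers 0, 5 and 3 were called higher and 0 lower at 12, 24 and 72 h. The 3' minus 5' difference of the GAPDH probe sets, a sign of RNA quality, was 0.349 to 0.425 at 0 h, 0.235 to 0.328 at 12 h, 0.251 to 0.512 at 24 h and 0.285 to 0.383 at 72 h. That of the actin probe sets was 1.12 to 1.57 at 0 h, 0.963 to 1.43 at 12 h, 1.09 to 1.54 at 24 h and 1.18 to 1.68 at 72 h. The part of these differences in the results was not tested.

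A gene was called changed at an adjusted p under 0.001 (limma, Benjamini-Hochberg over all probe sets) and a change of more than 1.5-fold. After 12 h of masitinib treatment 13 of the 31 repair genes were called lower and 0 higher, against 6.30% of all genes lower and 4.26% higher. At 24 h 19 were lower and 1 was higher, against 10.0% and 8.01% of all genes. At 72 h 18 were lower and 1 was higher, against 11.0% and 8.73% of all genes. The median log2 change of the 31 genes was -0.43, -1.0 and -0.94 at 12, 24 and 72 h, while that of all genes was 0.011, 0.033 and 0.024. In each comparison 27 of the 31 genes had a mean below that at 0 h. Across the comparisons 12 genes were lower at all 3 times, 20 at any time, and 11 at none.

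**Figure D1:**
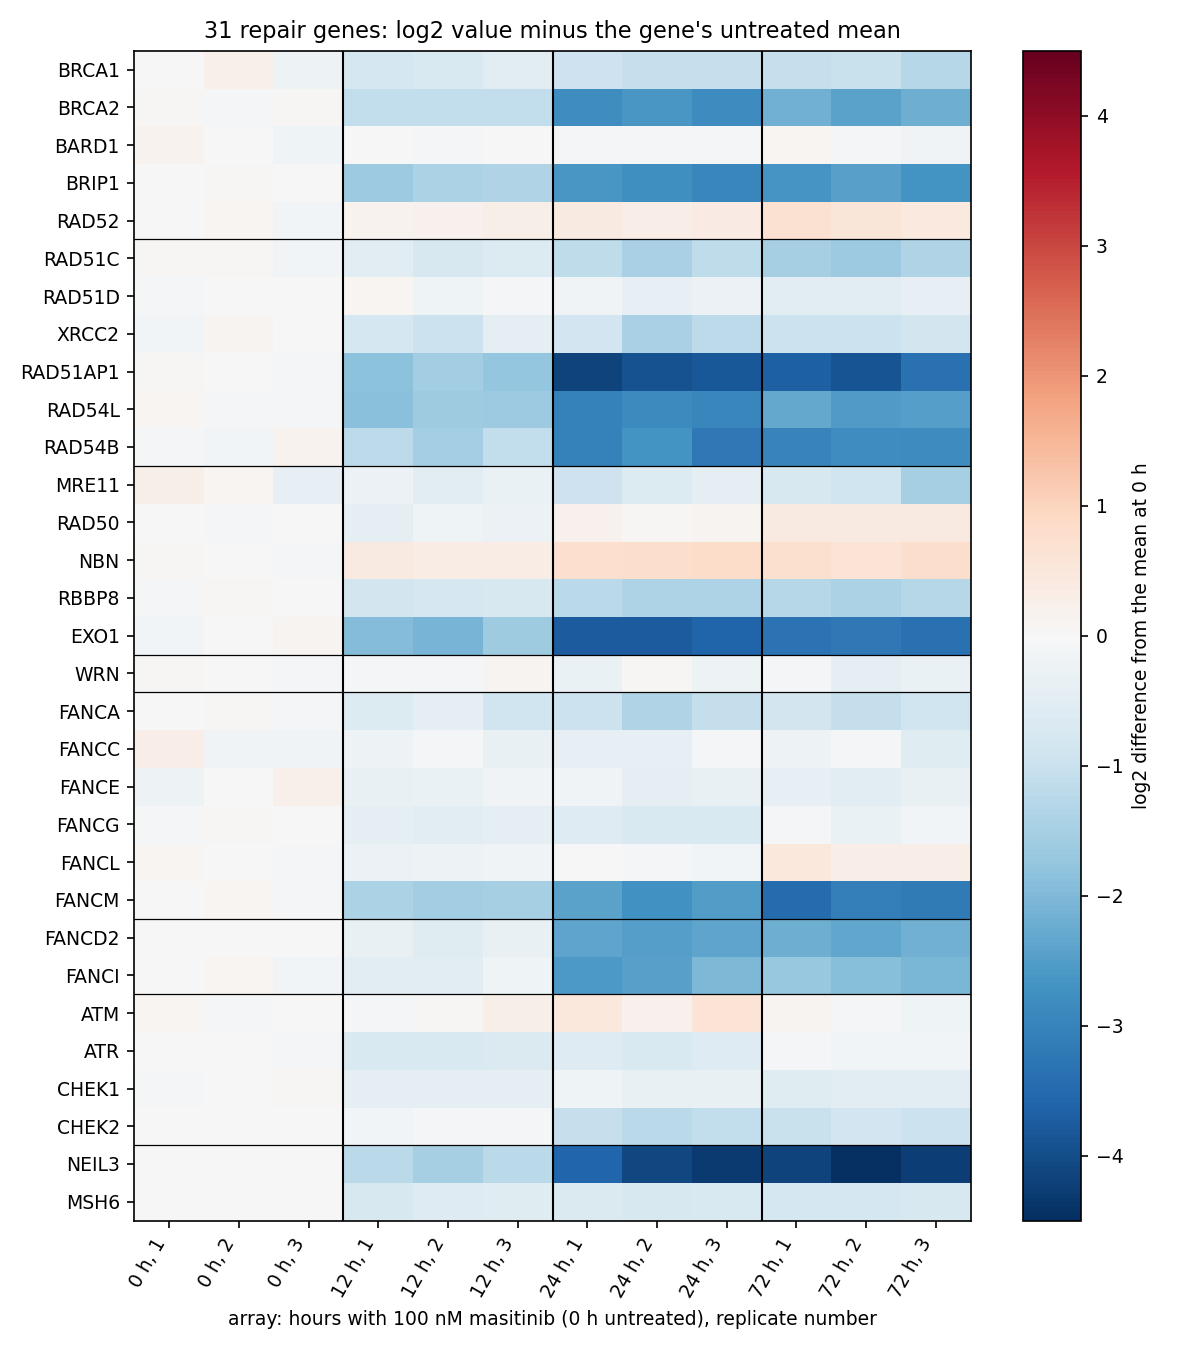
Each row is a repair gene, grouped by role, and each column is an array, with time in hours below. The colour gives the log2 expression value minus the gene's mean at 0 h, and the darkest decreases, with means of -3.31 to -4.30, are those of NEIL3, RAD51AP1 and EXO1 at 24 and 72 h.

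Of all called genes, 59.7%, 55.5% and 55.8% were lower at 12, 24 and 72 h. When arrays were scaled to the 36 probe sets of the bacterial poly-A controls, these shares were 88.6%, 95.8% and 89.6%, because the median of all probe sets then shifted by -0.28, -0.57 and -0.44. On that scale 20, 27 and 24 repair genes were called lower and 0 higher, against 14.3%, 46.8% and 30.7% of all genes lower. The members' median was -0.72, -1.61 and -1.41, which lay below that shift at each time. BARD1, RAD51D, WRN, FANCC, FANCE, FANCL and CHEK1 were called lower at 24 h on that scale, and at no time on the deposited scale. The mean log2 value of the poly-A controls ran from 8.301 to 8.575 over the arrays at 0 h and 8.697 to 8.806 at 12 h. It ran from 8.946 to 9.206 at 24 h and 8.818 to 9.034 at 72 h. The scaling thus also moved arrays of the same time point against each other. Values that follow are on the deposited scale unless poly-A scaling is named.

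The BRCA proteins and mediators gave 5 measured genes. Of these 3 were lower at each of 12, 24 and 72 h, against 6.30%, 10.0% and 11.0% of all genes. BRCA2, a mediator that acts on the resected single strand, had log2 values of 9.87, 9.76 and 9.87 at 0 h, 8.71, 8.74 and 8.71 at 12 h, 7.03, 7.23 and 7.00 at 24 h, and 7.67, 7.43 and 7.63 at 72 h. No 2 time points overlapped, and the lowest arrays were those at 24 h. The log2 change against 0 h was -1.11, -2.75 and -2.26 (SE 0.0794, adjusted p 3.36e-07, 5.99e-11 and 1.91e-10, limma). BRCA2 was 0.49 higher at 72 h than at 24 h (adjusted p = 0.000803, limma), which is under 1.5-fold and was not a call.

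BRIP1, the helicase that binds BRCA1, had values of 6.10, 6.17 and 6.10 at 0 h, 4.48, 4.69 and 4.77 at 12 h, 3.52, 3.37 and 3.20 at 24 h, and 3.46, 3.70 and 3.44 at 72 h. Every treated array was below every array at 0 h, and the arrays at 24 and 72 h overlapped each other. Its log2 change was -1.48, -2.76 and -2.59 (SE 0.1). The BRIP1 probe set was dim, at percentile 25.4 of mean signal, and detection calls were not used here, so how far its treated arrays stood above background is not known. BRCA1 itself, the scaffold that promotes resection and recruits BRCA2, was also called lower at each time. Its values were 6.71, 6.95 and 6.48 at 0 h, 5.91, 6.01 and 6.23 at 12 h, 5.78, 5.69 and 5.67 at 24 h, and 5.66, 5.73 and 5.43 at 72 h. These arrays did not overlap with those at 0 h, and the log2 change was -0.66, -1.0 and -1.11 (SE 0.118). The call for BRCA1 at 12 h (adjusted p = 0.000791, limma) ended when any 1 of 9 arrays was left out (adjusted p 0.00112 to 0.00518). It held without replicate 3 at 0, 12 or 72 h, and ended with cyclic loess between arrays (adjusted p = 0.0011).

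BARD1, the obligate partner of BRCA1 in its ubiquitin ligase, was not called. Its values were 10.88, 10.72 and 10.52 at 0 h, 10.69, 10.62 and 10.71 at 12 h, 10.64, 10.62 and 10.60 at 24 h, and 10.78, 10.65 and 10.56 at 72 h. All treated arrays fell within the spread at 0 h, and the log2 change was -0.031, -0.085 and -0.039 (SE 0.0865). RAD52, which anneals single strands, had log2 changes of 0.21, 0.36 and 0.57. The last had an adjusted p of 5.68e-05 (limma) but stayed under 1.5-fold. With scaling to the poly-A controls the changes of RAD52 were -0.086, -0.24 and 0.095, so its direction at 12 and 24 h depended on the scaling. Without replicate 2 at 0 h or replicate 3 at 72 h the change of RAD52 at 72 h was 0.61 or 0.62 and was called.

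Of the 6 measured strand-exchange factors, 4 were lower at 12 h and 5 at 24 and 72 h. The shares of all genes called lower were 6.30%, 10.0% and 11.0% at 12, 24 and 72 h. RAD51AP1, which stimulates strand invasion, had values of 9.48, 9.45 and 9.39 at 0 h, 7.59, 7.89 and 7.69 at 12 h, 5.29, 5.51 and 5.63 at 24 h, and 5.75, 5.54 and 6.07 at 72 h. The 12 h arrays lay between those at 0 h and those at 24 h with no overlap. The log2 change was -1.72, -3.97 and -3.65 (SE 0.126), which made RAD51AP1 15.6-fold lower at 24 h (adjusted p = 1.16e-10, limma).

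RAD54L and RAD54B are DNA translocases that help to open the intact duplex during strand invasion. RAD54L had values of 8.67, 8.54 and 8.53 at 0 h, 6.70, 6.97 and 6.93 at 12 h, 5.54, 5.70 and 5.64 at 24 h, and 6.29, 6.04 and 6.09 at 72 h. RAD54B had 7.21, 7.11 and 7.42 at 0 h, 6.08, 5.72 and 6.12 at 12 h, 4.22, 4.57 and 4.03 at 24 h, and 4.24, 4.45 and 4.42 at 72 h. In both genes the 12 h arrays were intermediate, with no overlap with either side. Their log2 changes at 12, 24 and 72 h were -1.71, -2.95 and -2.44 (SE 0.0888) for RAD54L and -1.27, -2.97 and -2.88 (SE 0.142) for RAD54B. RAD54L was 0.51 higher at 72 h than at 24 h, with no overlap of arrays and an adjusted p of 0.00126 (limma), which missed the threshold.

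Of the other strand-exchange factors, which take part in the search for matching sequence, RAD51C was lower at every time, XRCC2 at 24 and 72 h and RAD51D at none. RAD51C had values of 10.25, 10.26 and 10.09 at 0 h, 9.72, 9.46 and 9.60 at 12 h, 9.04, 8.73 and 9.05 at 24 h, and 8.71, 8.58 and 8.85 at 72 h. The arrays at 24 and 72 h overlapped, and its log2 change was -0.60, -1.26 and -1.49 (SE 0.104). The RAD51C call at 12 h (adjusted p = 0.000593, limma) ended without any 1 of 6 arrays, which were all 3 at 0 h, replicates 2 and 3 at 12 h and replicate 1 at 72 h (adjusted p 0.00107 to 0.00391, limma). XRCC2 had a change of -0.74, -1.18 and -0.92 (SE 0.146). Its value at 12 h had an adjusted p of 0.00171 (limma) and was not called. The XRCC2 call at 72 h ended without replicate 2 at 0 h or replicate 1 or 2 at 72 h (adjusted p 0.0011 to 0.00128), and a call at 12 h appeared without replicate 3 at 12 h or replicate 1 or 2 at 24 h (adjusted p 0.000609 to 0.000793). RAD51D had changes of -0.045, -0.27 and -0.46, the last with an adjusted p of 0.000321 (limma) and a size under 1.5-fold.

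**Figure D2:**
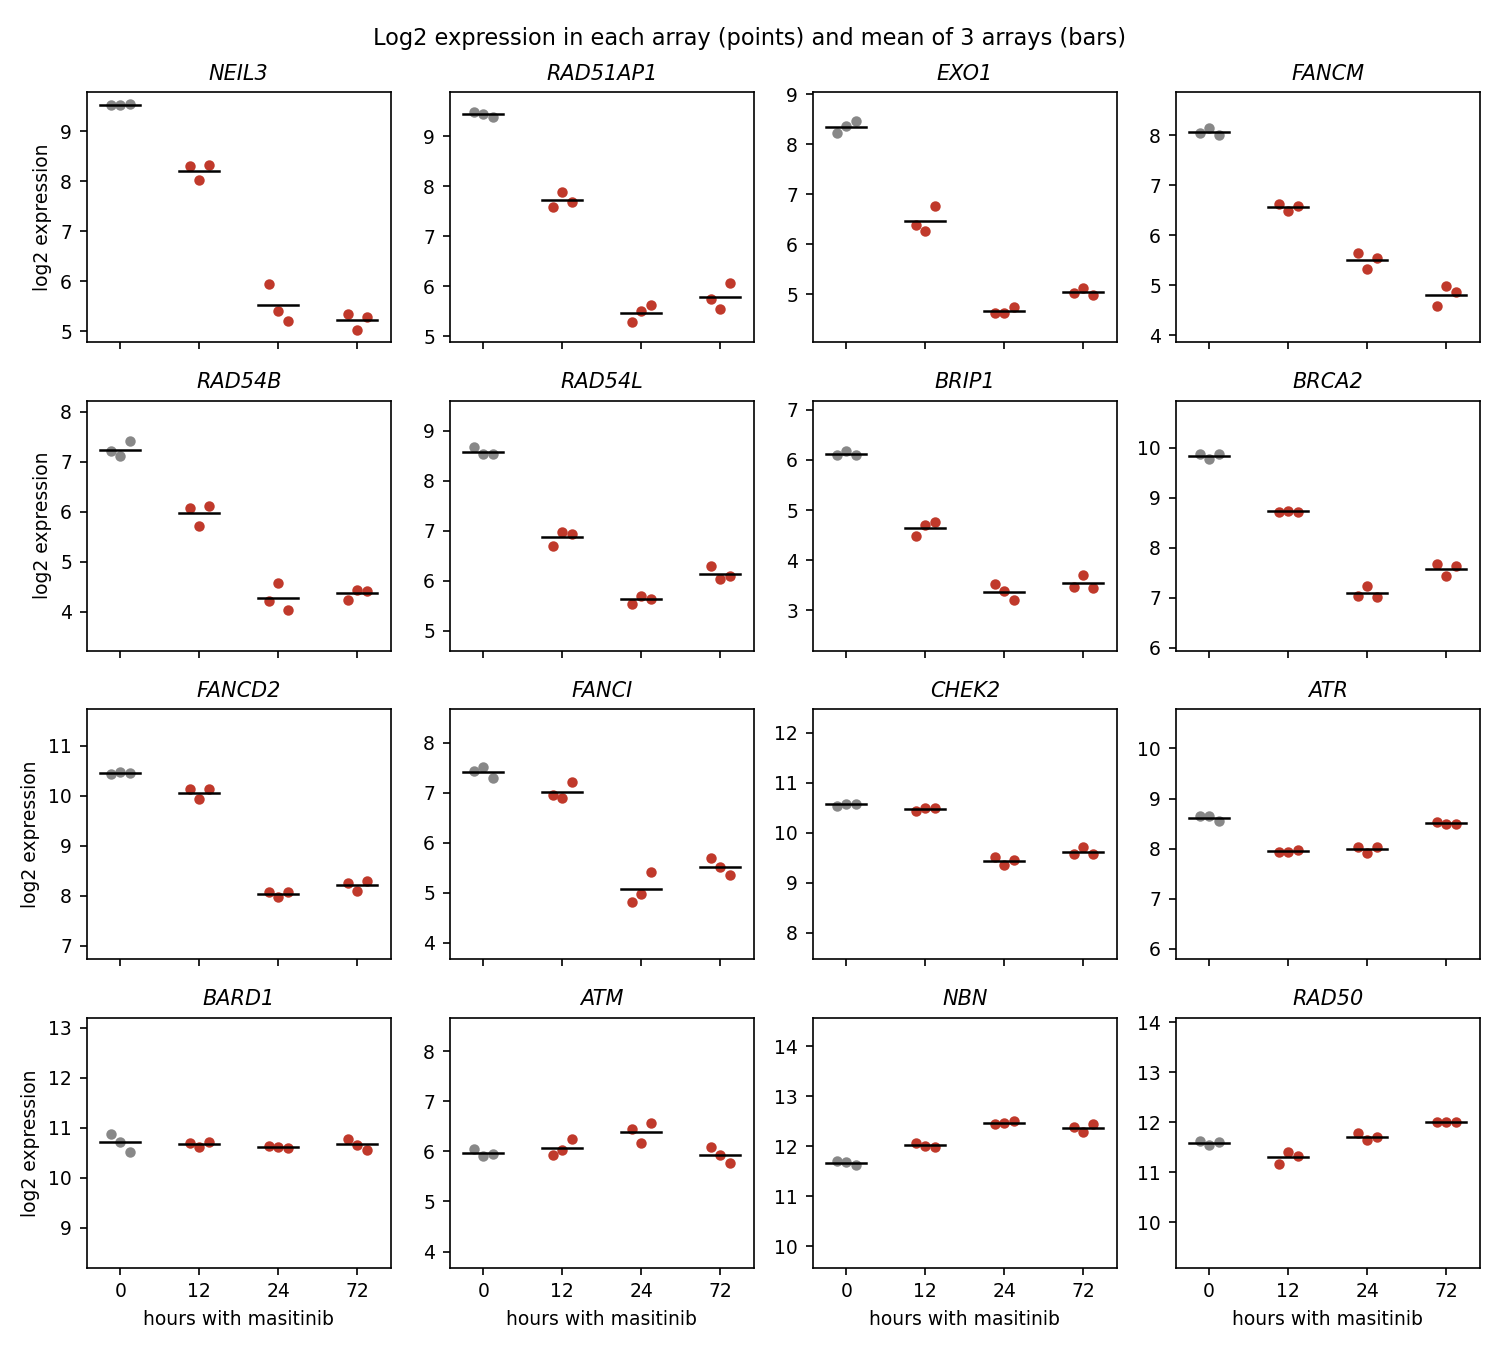
Each panel shows 1 gene, with log2 expression on the vertical axis over a span of 5 log2 units and the time points, evenly spaced, on the horizontal axis; points are single arrays (red with masitinib, grey at 0 h) and short bars are means of 3 arrays. NEIL3, RAD51AP1 and EXO1 descend in 2 steps over the first 24 h, FANCD2, FANCI and CHEK2 descend mainly between 12 and 24 h, and NBN ascends.

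Of 5 genes of end resection and the MRN complex, 2, 2 and 3 were lower at 12, 24 and 72 h and 0, 1 and 1 higher. Among all genes 6.30%, 10.0% and 11.0% were lower and 4.26%, 8.01% and 8.73% higher. EXO1, the exonuclease that extends resection, had values of 8.22, 8.36 and 8.46 at 0 h, 6.39, 6.26 and 6.76 at 12 h, 4.62, 4.62 and 4.74 at 24 h, and 5.03, 5.12 and 4.98 at 72 h. No 2 time points overlapped and the lowest arrays were those at 24 h. Its log2 change was -1.88, -3.69 and -3.31 (SE 0.112), or 12.9-fold lower at 24 h (adjusted p = 7.91e-11, limma). RBBP8, also called CtIP, which starts resection together with MRE11, was lower by a log2 change of -0.77, -1.33 and -1.33 (SE 0.0681). Its arrays ran from 10.30 to 10.37 at 0 h, 9.52 to 9.61 at 12 h, 8.94 to 9.13 at 24 h and 8.92 to 9.04 at 72 h.

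Of the 3 subunits of the MRN complex, NBN was called higher, MRE11 lower and RAD50 in neither direction against 0 h. NBN, the subunit that binds ATM, was the only repair gene called higher than at 0 h. It had values of 11.71, 11.68 and 11.62 at 0 h, 12.07, 12.01 and 11.99 at 12 h, 12.44, 12.46 and 12.51 at 24 h, and 12.39, 12.28 and 12.44 at 72 h. Every treated array was above every array at 0 h. The log2 change was 0.35, 0.80 and 0.70 (SE 0.0608), of which those at 24 and 72 h were called (adjusted p 2.48e-07 and 7.46e-07, limma). With scaling to the poly-A controls the changes of NBN were 0.058, 0.20 and 0.23 and none was called (adjusted p 0.703, 0.156 and 0.106).

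RAD50, the subunit that tethers the broken ends, had values of 11.62, 11.55 and 11.61 at 0 h, 11.17, 11.40 and 11.33 at 12 h, 11.78, 11.65 and 11.71 at 24 h, and 12.01, 12.00 and 12.01 at 72 h. The 12 h arrays were the lowest and the 72 h arrays the highest, with no overlap between any 2 time points. Against 0 h its log2 changes were -0.29, 0.12 and 0.41 (SE 0.0675), all under 1.5-fold. Its second, dimmer probe set had 0.27, 0.39 and 0.25 (SE 0.359, adjusted p 0.676, 0.448 and 0.632, limma), with arrays that overlapped those at 0 h. With scaling to the poly-A controls the change of the brighter probe set was -0.59, -0.49 and -0.061 at 12, 24 and 72 h. Its direction at 24 and 72 h thus depended on the scaling. On that scale RAD50 was called lower at 12 h (adjusted p = 0.000875, limma). MRE11, the nuclease subunit, was called at 72 h only, with values of 5.65, 5.49 and 5.04 at 0 h, 5.14, 4.88 and 5.11 at 12 h, 4.46, 4.78 and 4.99 at 24 h, and 4.67, 4.49 and 3.88 at 72 h. The arrays within a time point were spread widely, and the probe set was dim, at percentile 33.3 of mean signal. Its log2 change was -0.35, -0.65 and -1.05 (SE 0.204). The call at 72 h (adjusted p = 0.001, limma) ended without any 1 of 10 arrays, all but replicate 3 at 0 h and replicate 1 at 72 h (adjusted p 0.00104 to 0.00562), and with cyclic loess between arrays (adjusted p = 0.00121).

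WRN, the only gene measured among the helicases and dissolution factors, was not called. Its arrays lay between 4.10 and 4.63, and the log2 changes were 0.0042, -0.15 and -0.27 (SE 0.105). The WRN probe set was dim, at percentile 25.5 of mean signal, and how far its arrays stood above background is not known.

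Within the Fanconi core complex, 1 of 6 measured genes was lower at 12 h, 3 at 24 h and 2 at 72 h. Among all genes 6.30%, 10.0% and 11.0% were lower at these times, and the difference was not tested. FANCM, the translocase that recognises stalled replication forks, had values of 8.05, 8.14 and 8.01 at 0 h, 6.63, 6.49 and 6.59 at 12 h, 5.64, 5.33 and 5.54 at 24 h, and 4.59, 4.98 and 4.88 at 72 h. Each time point lay wholly below the one before it. The log2 change was -1.50, -2.56 and -3.25 (SE 0.104), and FANCM was 9.5-fold lower at 72 h (adjusted p = 8.62e-11, limma). It was also the 1 repair gene that was called between 24 and 72 h, where 1.81% of all genes were lower and 1.96% higher. That change of -0.69 (adjusted p = 0.000462, limma) lost its call without replicate 1 or 3 at 24 h or replicate 1 or 3 at 72 h (-0.72 to -0.57, adjusted p 0.00142 to 0.00301).

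FANCA, which organises the core complex with FANCG, had log2 changes of -0.66, -1.12 and -0.94 (SE 0.122). Its arrays ran from 6.83 to 6.92 at 0 h, 5.97 to 6.43 at 12 h, 5.52 to 5.92 at 24 h and 5.79 to 6.04 at 72 h. The 12 h value had an adjusted p of 0.00109 (limma) and was not called, although it was without replicate 2 at 12 h or replicate 2 at 24 h (-0.76 or -0.66). FANCG, its direct binding partner, had values of 9.99, 10.14 and 10.09 at 0 h, 9.68, 9.61 and 9.65 at 12 h, 9.48, 9.40 and 9.37 at 24 h, and 10.03, 9.79 and 9.94 at 72 h. The arrays at 72 h overlapped those at 0 h, while those at 12 and 24 h lay below. FANCG was called at 24 h only, with a log2 change of -0.66 (SE 0.0724, adjusted p = 7.99e-06, limma), against -0.43 at 12 h and -0.15 at 72 h. Its second probe set had -0.38 at 24 h and was not called, and the mean of both, -0.52, was under 1.5-fold. From 24 to 72 h FANCG was 0.50 higher (adjusted p = 0.000328, limma), which is under 1.5-fold.

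The other core genes were not called at any time on the deposited scale. FANCL, the ubiquitin ligase subunit, had log2 changes of -0.21, -0.071 and 0.36 (SE 0.0714), and the last was -0.11 with scaling to the poly-A controls. FANCC had -0.22, -0.28 and -0.27 (SE 0.146), from a dim probe set at percentile 29.6 of mean signal. FANCE, which contacts FANCD2, had -0.27, -0.31 and -0.41 (SE 0.11). With scaling to the poly-A controls FANCL, FANCC and FANCE were called lower at 24 h, at -0.67, -0.88 and -0.91. On that scale FANCC and FANCE were also called lower at 72 h, at -0.74 and -0.88.

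FANCD2 and FANCI, the pair that receives ubiquitin from the core complex, were called lower at 24 and 72 h and not at 12 h. FANCD2 had values of 10.44, 10.48 and 10.44 at 0 h, 10.13, 9.93 and 10.13 at 12 h, 8.07, 7.98 and 8.08 at 24 h, and 8.26, 8.10 and 8.30 at 72 h. FANCI had 7.44, 7.52 and 7.30 at 0 h, 6.95, 6.89 and 7.22 at 12 h, 4.83, 4.98 and 5.41 at 24 h, and 5.70, 5.52 and 5.36 at 72 h. In both genes the 12 h arrays lay just under those at 0 h and far above those at 24 h. The log2 change was -0.39, -2.41 and -2.24 (SE 0.0735) for FANCD2 and -0.40, -2.34 and -1.89 (SE 0.143) for FANCI.

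Of the checkpoint kinases, 1 of 4 was lower at 12 h, 2 at 24 h and 1 at 72 h. Among all genes 6.30%, 10.0% and 11.0% were lower at these times, and the difference was not tested. CHEK2, the kinase that ATM activates after a double-strand break, had values of 10.54, 10.58 and 10.58 at 0 h, 10.44, 10.50 and 10.50 at 12 h, 9.52, 9.36 and 9.46 at 24 h, and 9.58, 9.71 and 9.58 at 72 h. The arrays at 12 h were slightly under those at 0 h, and those at 24 and 72 h were far below. Its log2 change was -0.086, -1.12 and -0.94 (SE 0.0621). ATR, which responds to single-stranded DNA at stalled forks, had values of 8.64, 8.65 and 8.56 at 0 h, 7.94, 7.93 and 7.97 at 12 h, 8.04, 7.92 and 8.04 at 24 h, and 8.54, 8.50 and 8.48 at 72 h. Its arrays were low at 12 and 24 h, and at 72 h they were just under those at 0 h. ATR was called at 12 and 24 h, with log2 changes of -0.67 and -0.62 (SE 0.0572), and had -0.11 at 72 h (adjusted p = 0.15, limma). The 24 h call ended without replicate 2 at 24 h, where the change was -0.58 and under 1.5-fold.

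CHEK1, the kinase downstream of ATR, had log2 changes of -0.42, -0.28 and -0.51 (SE 0.0603). The adjusted p at 72 h was 1.24e-05 (limma), but the change was under 1.5-fold. ATM, the kinase that responds to double-strand breaks, had values of 6.04, 5.92 and 5.95 at 0 h, 5.93, 6.03 and 6.24 at 12 h, 6.45, 6.17 and 6.57 at 24 h, and 6.10, 5.93 and 5.77 at 72 h. Only the arrays at 24 h stood clear of those at 0 h. Its log2 change of 0.43 at 24 h (SE 0.115, adjusted p = 0.0101, limma) was not called, and was -0.18 with scaling to the poly-A controls. The second ATM probe set, at percentile 49 of mean signal against 52.3, had 0.073 at 24 h (adjusted p = 0.505, limma). Its arrays at 24 h overlapped those at 0 h.

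**Figure D3:**
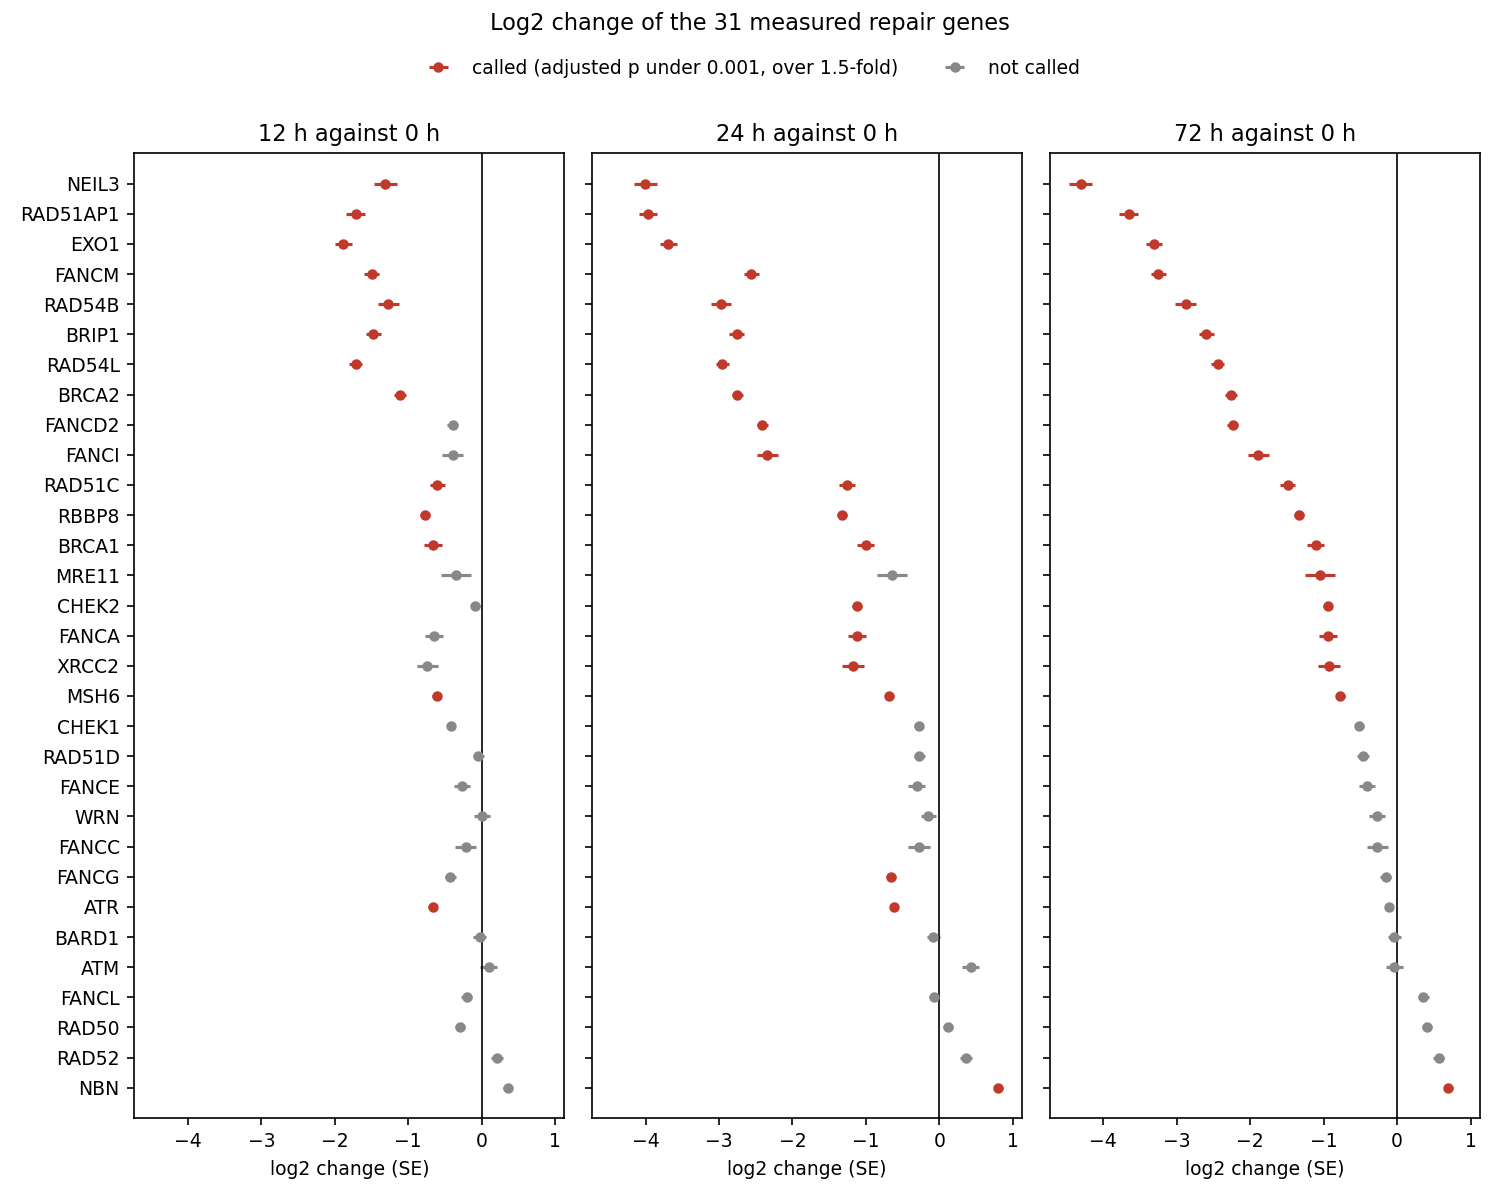
The log2 change against 0 h is shown for each of the 31 genes at 12, 24 and 72 h, with bars of 1 standard error from limma and genes sorted by the change at 72 h. The changes run from -4.30 for NEIL3 to 0.70 for NBN at 72 h, and the 12 h points lie nearest to 0 for most genes with a large change.

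The remaining measured genes were both lower at all 3 times. NEIL3, a glycosylase that can unhook crosslinks between DNA strands, had the largest change of the 31 genes when each was taken by its brightest probe set. It had values of 9.51, 9.52 and 9.54 at 0 h, 8.30, 8.01 and 8.31 at 12 h, 5.94, 5.41 and 5.20 at 24 h, and 5.35, 5.02 and 5.29 at 72 h. The 12 h arrays stood clear of both sides, and those at 24 and 72 h overlapped. Its log2 change was -1.32, -4.01 and -4.30 (SE 0.157), which is 19.8-fold lower at 72 h (adjusted p = 2.63e-10, limma). Its second probe set had -1.80 at 72 h, and the mean of both was smaller in size than the changes of RAD51AP1 and EXO1 taken the same way. MSH6, a subunit that recognises mismatches, had log2 changes of -0.62, -0.68 and -0.77 (SE 0.06), with arrays from 11.87 to 11.89 at 0 h, 11.16 to 11.32 at 12 h, 11.17 to 11.24 at 24 h and 11.08 to 11.15 at 72 h. Without replicate 1 at 12 h the change of MSH6 at 12 h was -0.56, under 1.5-fold.

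Genes were first called at different times. Between 12 and 24 h 12 genes were called lower and 0 higher, against 3.10% and 1.41% of all genes. Of these, 9 had already been called at 12 h: BRCA2, BRIP1, RAD51C, RAD51AP1, RAD54L, RAD54B, EXO1, FANCM and NEIL3. In the other 3, FANCD2, FANCI and CHEK2, the 12 h arrays held 16.3%, 17% and 7.63% of the mean change at 24 h. Over single 12 h arrays these shares were 13.6% to 21.9% for FANCD2, 8.62% to 22.4% for FANCI and 5.84% to 10.8% for CHEK2. In contrast, ATR and MSH6 had 108% and 90.5% of their 24 h change at 12 h, with 105% to 110% and 81.4% to 106% over single arrays. NEIL3 had 32.8% (30.2% to 37.7%), BRCA2 40.5% (39.9% to 40.9%) and FANCM 58.4% (55.9% to 61.7%). The shares use the mean change at 24 h as the denominator and are a description without a test.

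The step from 12 to 24 h was -2.69 for NEIL3, -2.25 for RAD51AP1, -2.02 for FANCD2 and -1.95 for FANCI. It was -1.81 for EXO1, -1.70 for RAD54B, -1.63 for BRCA2 and -1.28 for BRIP1. The smallest called steps were -1.24 for RAD54L, -1.07 for FANCM, -1.04 for CHEK2 and -0.65 for RAD51C, and the last ended without any 1 of 9 arrays, all but replicate 3 at 0 h and replicates 2 and 3 at 72 h (adjusted p 0.00121 to 0.00464, limma). BRCA1, RBBP8, ATR and MSH6 were called at 12 h with no further call up to 24 h, although RBBP8, at -0.57, was called without replicate 1 at 12 h (-0.59) or replicate 1 at 24 h (-0.63). Between 12 and 24 h 68.7% of all called genes were lower, and 95.5% with scaling to the poly-A controls. Between 24 and 72 h the shares were 48% and 24.9%. The members' median change from 24 to 72 h was 0.097.

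Repeated probe sets allowed a comparison within genes. The 31 genes had 52 probe sets, and 16 genes had more than 1. Of the 18 genes lower at 72 h, 8 had several probe sets, and in all 8 every probe set was called lower: BRCA2, RAD51C, RBBP8, EXO1, FANCM, FANCD2, CHEK2 and NEIL3. The size differed between probe sets, with -4.30 and -1.80 for NEIL3 and -0.94 and -1.64 for CHEK2 at 72 h. For EXO1 the changes were -3.31 and -4.23. At 12 h no probe set of FANCD2 or CHEK2 was called, and in 4 more of these genes only some were. The 3 FANCM probe sets ranged from -1.50 to -0.38 and 2 were called, and the 3 RAD51C probe sets ranged from -0.60 to -0.47 and 1 was called. NEIL3, with -1.32 and -0.81, and RBBP8, with -0.77 and -0.44, had 1 of 2 called. Both NBN probe sets were called higher at 72 h, with 0.70 and 0.69, and at 24 h, with 0.80 and 0.89. The 5 RAD52 probe sets ran from -0.13 to 0.57 at 72 h and none was called.

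Further genes of recombination and crosslink repair were measured as well. Of 36 measured, 8, 13 and 12 were lower and 3, 2 and 2 higher at 12, 24 and 72 h, with median log2 changes of -0.22, -0.32 and -0.34. Of all genes 6.30%, 10.0% and 11.0% were lower and 4.26%, 8.01% and 8.73% higher. Between 24 and 72 h 0 of the 36 were lower and 2 higher, against 1.81% and 1.96% of all genes. FAN1 was called higher at 12, 24 and 72 h, with log2 changes of 0.60, 0.86 and 1.19. The largest decreases at 72 h were -3.67 for MND1 and -2.33 for PSMC3IP, which form a cofactor of strand exchange, -2.77 for the resection nuclease DNA2, and -2.32 for RMI2, a subunit of the dissolution complex. Of 16 checkpoint mediators and sensors, 3, 6 and 8 were lower and 0 higher. CLSPN, the adaptor through which ATR activates CHEK1, was at -2.32 and CDC25C, a phosphatase that opens mitosis, at -2.23 at 72 h. RAD1, a subunit of the checkpoint clamp, was at -1.45 and TOPBP1, the activator of ATR, at -1.13.

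The other repair routes included calls in both directions, and their counts stand against 6.30%, 10.0% and 11.0% of all genes lower at 12, 24 and 72 h. In non-homologous end joining, which rejoins breaks without a template, 0, 1 and 0 of 10 genes were lower and 0, 2 and 0 higher at 12, 24 and 72 h, with a median of -0.029 at 72 h. Nucleotide excision repair had 2, 1 and 2 of 14 lower and 1, 1 and 0 higher. Its shares lower, 14.3%, 7.14% and 14.3%, were near those of all genes at 24 and 72 h, and the 2 genes lower at 72 h were RAD23B at -0.76 and ERCC3 at -0.61. Base excision repair other than NEIL3 had 2, 4 and 5 of 15 lower and 0, 0 and 2 higher. At 72 h the uracil glycosylase UNG was at -1.82, PARP2 at -1.42, the endonuclease APEX1 at -1.35 and the glycosylase NEIL2 at 0.84. Mismatch repair other than MSH6 had 1, 0 and 1 of 4 lower and 0, 0 and 1 higher, with MSH3 at -0.79 and MLH3 at 0.76 at 72 h. Translesion synthesis had 2, 2 and 1 of 5 lower and 0, 1 and 1 higher, with the ubiquitin ligase RAD18 at -3.05 and the polymerase subunit REV3L at 0.86. Between 24 and 72 h 2 of the 10 end joining genes and 1 of the 15 base excision genes were higher, against 1.96% of all genes. No gene of these lists was called lower in that interval. No test was made of the difference between these lists and the recombination genes.

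**Figure D4:**
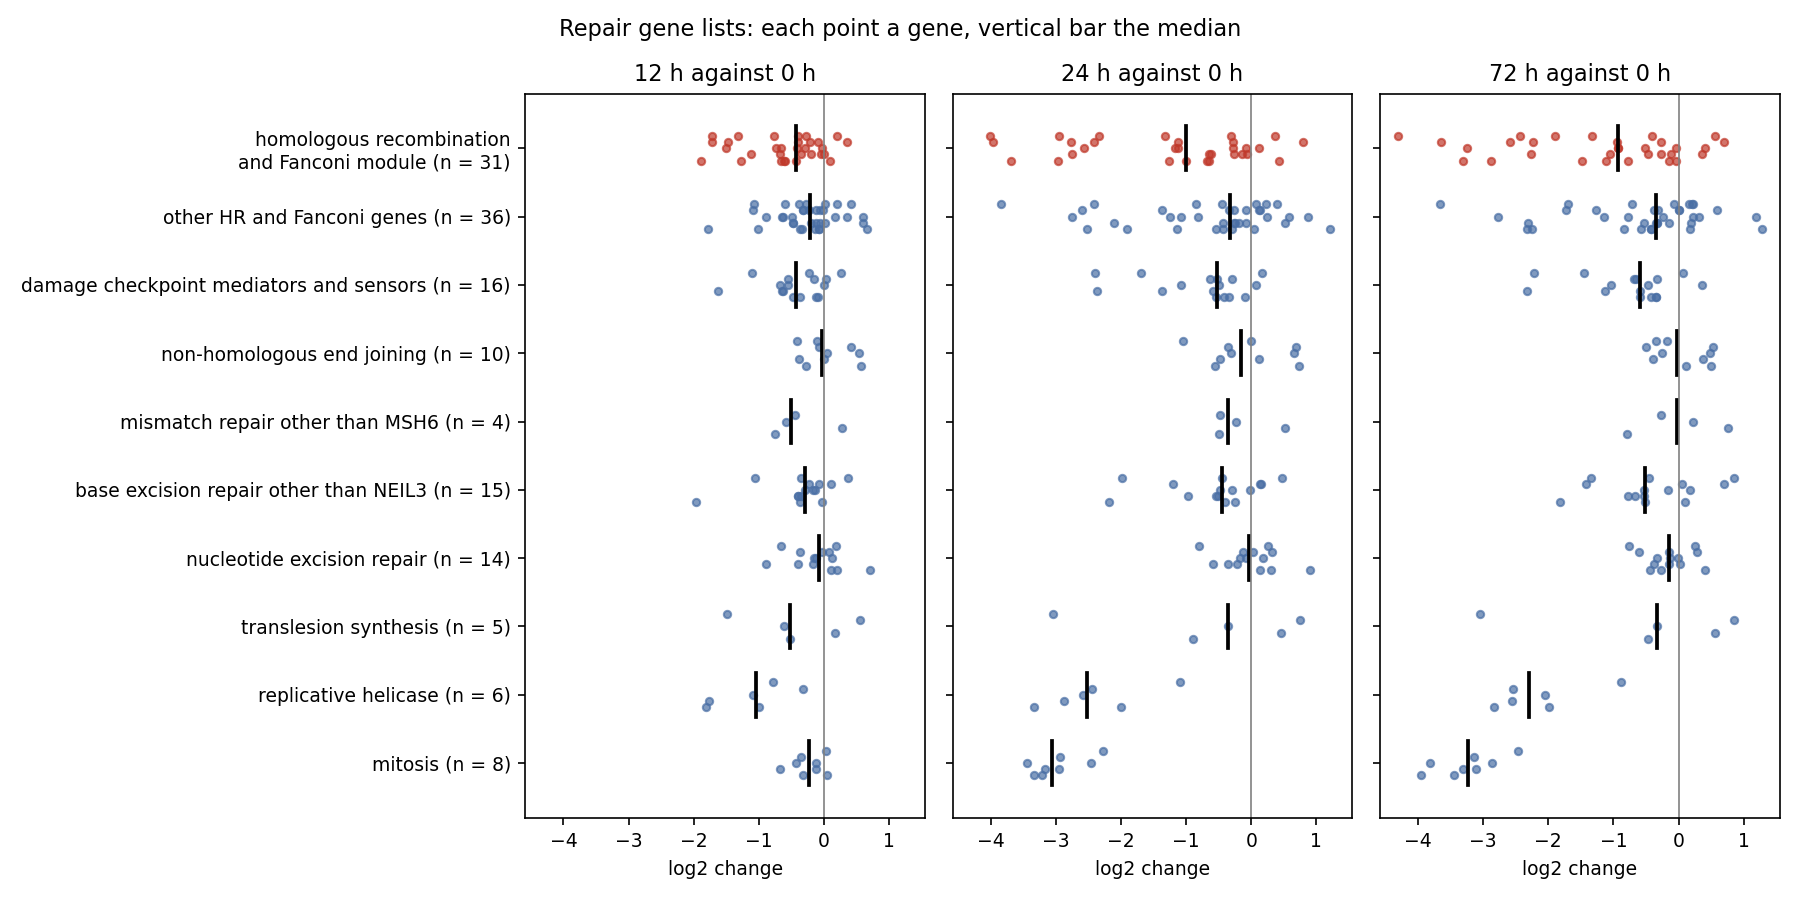
Each point is the log2 change of 1 gene against 0 h and each vertical bar the median of a list, with 1 row per gene list, 1 panel each for 12, 24 and 72 h, and a common horizontal axis. The recombination and Fanconi genes spread from -4.30 to 0.70 at 72 h, and the end joining genes from -0.50 to 0.53.

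Genes of DNA replication were also called lower, and those of mitosis mostly at 24 and 72 h. The 6 subunits of the replicative helicase had median log2 changes of -1.04, -2.52 and -2.30 at 12, 24 and 72 h, and 5, 6 and 6 were called lower. MCM2 was at -2.83, MCM3 at -2.56, MCM5 at -2.55 and MCM4 at -2.05 at 72 h. Of 8 mitosis genes 1, 8 and 8 were lower, with medians of -0.22, -3.06 and -3.23. Both counts stand against 6.30%, 10.0% and 11.0% of all genes lower at 12, 24 and 72 h. At 72 h CCNB2, the cyclin partner of CDK1, was at -3.96, the spindle factor TPX2 at -3.82, the checkpoint kinase TTK at -3.45 and CDK1, which drives entry into mitosis, at -3.31. At 12 h these 4 genes had 0.047, -0.43, -0.33 and -0.68. The share of cells in each phase of the cell cycle was not measured on these arrays, and its part in the changes of the repair genes was not tested.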

How the data were processed

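Messenger RNA of C2 cells was measured on 12 Affymetrix Canine Genome 2.0 arrays, 3 per time point. The authors processed the scans with the gcRMA workflow of Partek and deposited log2 expression values for each probe set. Their quantile normalisation removes a shift shared by most transcripts. Of 43035 probe sets, 111 controls were set aside and 42924 tested. The platform annotation gave 1 gene symbol to 29254, several to 439 and none to 13231, and symbols were updated through Entrez identifiers to assembly UU_Cfam_GSD_1.0.

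A limma 3.58.1 model (R 4.3.3, lmFit and eBayes) with 1 coefficient per time point was fitted to all 12 arrays, and p-values were adjusted by Benjamini-Hochberg over the 42924 probe sets. Calls required an adjusted p under 0.001 together with a change over 1.5-fold. Python 3.11.15 drew the figures. The members, gene lists and tests were chosen with earlier results of these data known. All measured members are named. Array values are given by rule for the 8 largest called changes, the 4 smallest changes at 72 h and members called higher in any contrast, and those of BRCA1, RAD51C, MRE11, FANCD2, FANCI and CHEK2 were added after their values were seen. From other lists up to 4 genes with the largest called change at 72 h are named, and FAN1 was added after its values were seen. Precision is limited by the number of arrays (median residual SD 0.1124, log2). In simulated data of 42924 probe sets for 72 h against 0 h, 100 probe sets were changed 2-fold and 100 4-fold, with independent noise. Of these 77% and 98% were called, with 0 false calls. Far more genes were called in the data, and shifts shared by an array were not simulated, so these rates may not hold for the data. Alternatives covered scaling, dim probe sets, the probe set per gene, thresholds, the test, the arrays fitted, a replicate block and each array left out.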

Additional observations from a re-analysis of the deposited data

Results flagged for a closer look

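On the deposited scale the brighter RAD50 probe set moved in opposite directions at 2 time points. Its log2 change was 0.41 at 72 h and -0.29 at 12 h against the same arrays at 0 h, and the difference of 0.70 (SE 0.0675) had an adjusted p of 4.3e-06 in limma. All arrays at 72 h were above, and all at 12 h below, those at 0 h. The difference was 0.52 (adjusted p = 0.00327, limma) with scaling to the poly-A controls and 0.35 (adjusted p = 0.172, limma) as the mean of both RAD50 probe sets. With poly-A scaling the changes were -0.59 at 12 h, a call (adjusted p = 0.000875, limma), and -0.061 at 72 h. The directions were thus not opposite on that scale. The dimmer probe set was higher at both times, with 0.25 at 72 h and 0.27 at 12 h. Which probe set reports the transcript better was not tested.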

How the results depend on the processing

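The number of arrays and the distance of dim probe sets from background limit these results. Of 2723 recomputed values of single genes, 2576 kept their direction and side of the threshold, 85 lost a call, 41 gained one and 21 changed sign, 0 of them for a called change. Where 1 array decided a call, the report names it. Genes called lower at 12, 24 and 72 h numbered 11 to 14, 18 to 19 and 16 to 18 with 1 array left out. Genes called higher at 72 h then numbered 1 to 2, and genes lower between 24 and 72 h 0 to 1. With scaling to the poly-A controls 20 genes were lower at 12 h, 0 were higher at 24 or 72 h, and between 24 and 72 h 0 were lower and 1 was higher. Over 2-fold 8 genes were lower at 12 h, 0 were higher at 24 or 72 h, and 0 were lower between 24 and 72 h. The 1 call of FANCM between 24 and 72 h also became 0 with the mean of all probe sets, the ordinary analysis of variance, a fit of only the 2 time points compared, and the replicate block. The cause was not tested.

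The replicate numbers were not treated as pairs: arrays with the same number had correlated deviations of -0.329 to 0.387, -0.079 to 0.275 and -0.189 to 0.411 for numbers 1, 2 and 3, and 6 of 12 arrays correlated best with their own number. With the replicate block 12, 19 and 17 genes were lower at 12, 24 and 72 h, 12 between 12 and 24 h and 0 between 24 and 72 h; the calls that ended were BRCA1 at 12 h (adjusted p = 0.00157), MRE11 at 72 h (adjusted p = 0.00188) and FANCM between 24 and 72 h (limma).

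The sign changes were in uncalled values. WRN at 12 h was -0.030 with median centring, -0.0047 with cyclic loess, -0.29 with poly-A scaling and -0.048 to 0.032 with 1 array left out. ATM was -0.20 at 12 h and -0.18 at 24 h with poly-A scaling, and at 72 h it was 0.069 with the probe set of largest change, 0.017 with the mean of probe sets and -0.12 to 0.046 with 1 array left out. Poly-A scaling gave RAD52 -0.086 at 12 h and -0.24 at 24 h, RAD50 -0.49 at 24 h and -0.061 at 72 h, and FANCL -0.11 at 72 h. With 1 array left out BARD1 was -0.12 to 0.055 at 12 h, -0.18 to 0.0012 at 24 h and -0.13 to 0.047 at 72 h, and RAD51D was -0.11 to 0.022 at 12 h.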
